A study of Triticum aestivum with 3 samples.

Results

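Wheat (Triticum aestivum) seedlings given dithiothreitol (DTT) together with tauroursodeoxycholic acid (TUDCA) were compared with seedlings given DTT alone, by sequencing the degradome of their leaves. The comparison uses 6 of the 9 libraries of the series, 3 of DTT and 3 of DTT with TUDCA, chosen by their treatment label and not by any measured value. Both groups carry DTT and were sampled after 2 days of treatment, so by their labels they differ in TUDCA only. Whether the amount of DTT and the handling were the same is not stated. The 3 libraries of a group are independent biological replicates per the labels. No cultivar, amount of either agent or age in days is stated in the labels. The third group, an untreated control, is quoted only beside the other two. Each library started from about 20 µg of leaf RNA, per the labels.

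DTT is a small reducing agent that breaks the disulphide bonds of proteins maturing in the endoplasmic reticulum (ER). Unfolded proteins then gather in the ER, and the cell answers with the unfolded protein response, which in plants runs through the membrane sensor IRE1 and membrane-bound bZIP transcription factors. TUDCA is a bile acid conjugate that serves as a chemical chaperone and is widely used to relieve ER stress. Plant microRNAs guide Argonaute proteins to nearly complementary transcripts, which are cut within the paired stretch. The downstream fragment of a cut transcript carries a 5′ monophosphate, and a degradome library captures RNA ends of that kind. Other decay also leaves such ends, and a transcript that is more abundant can give more of them, so the reads below measure listed fragment ends and not slicing itself. Whether transcript abundance moved with them was not tested.

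The table of this comparison listed 10375 lines, each a small RNA paired with a transcript and its raw degradome reads in the 6 libraries. Where lines with the same small RNA, or the same transcript, held nearly equal reads, they were merged and counted once, as 1 signal, which carries the reads of its strongest line. This left 3857 signals with 39228 reads, from 1165 small RNAs and 6241 transcripts. Of the small RNAs, 104 had wheat (tae) names, 965 were named after other species, and the remaining 96 carry PC names. Depth per signal was low, since 2460 signals (63.8%) had 3 reads or fewer over all 6 libraries and 536 had 10 or more. The tables hold no small RNA or transcript sequence, no cleavage position and no gene annotation, so transcripts are given by their ID and chromosome arm, and the leaf identity was not checked against marker genes. DTT replicate 3 stood apart from the other 5 libraries before any test. It had the fewest reads in signals, and it alone was the lowest of the 6 libraries in 83 of the 187 signals tested below, where the next library was lowest in 29. What set it apart was not tested, and its effect on the totals, the calls and some of the family sums is given beside them.

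More distinct degradome signals, and more reads in them, were seen with TUDCA than with DTT alone, but the 2 groups overlapped. Signals with at least 1 read numbered 1435, 1273 and 1117 in the DTT libraries and 1414, 1578 and 1518 in those with TUDCA. The lowest library with TUDCA thus lay just under the highest DTT library. Means were 1275 ± 159 and 1503 ± 82.98 (SD, n = 3), with an exact two-sided permutation p of 0.2, where 3 against 3 libraries allow no p below 0.1. Reads in signals per 10000000 library reads (per 10M, the scale of all levels below) were 5587, 4889 and 3699.8 in DTT and 5076, 5713 and 5869.6 with TUDCA, a ratio of means of 1.18 (exact permutation p = 0.2). Without DTT replicate 3 the difference of means fell from 827 to 315 reads per 10M, and that in signals from 228 to 149. Reads in signals were thus sensitive to that 1 library by more than 1.5 times, and were likewise raised, to 1258, when DTT replicate 1 was left out. Library reads were nearly equal, from 12.53M to 13.01M. They were recovered from the deposited values, what they count is not stated, and every level per 10M and fold change by library reads rests on them.

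At equal depth the diversity of signals did separate the groups. When every library was brought down to the 4771 signal reads of the smallest, the expected number of signals was 1181, 1139 and 1117 in DTT and 1218, 1236 and 1208 with TUDCA. Every library with TUDCA then lay above every DTT library, by 74.9 signals on average (exact permutation p = 0.1, the smallest possible). Counting only signals with 2 reads or more, the difference was 48.7 signals, with the same p. The signals shared by both treatments held 88.4% of the reads and numbered 1484, against 1040 seen in DTT alone and 1333 with TUDCA alone. Those of 1 treatment were mostly single reads, with a median of 1 read each. The median coefficient of variation over the tested signals was 0.383 with TUDCA, against 0.506 in DTT, a description that was not tested. The tested signals were also higher with TUDCA (median log2 fold change 0.26), and DTT replicate 3 alone was lowest in 83 of 187. How far either enters the difference in variation was not tested.

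**Figure D1:**
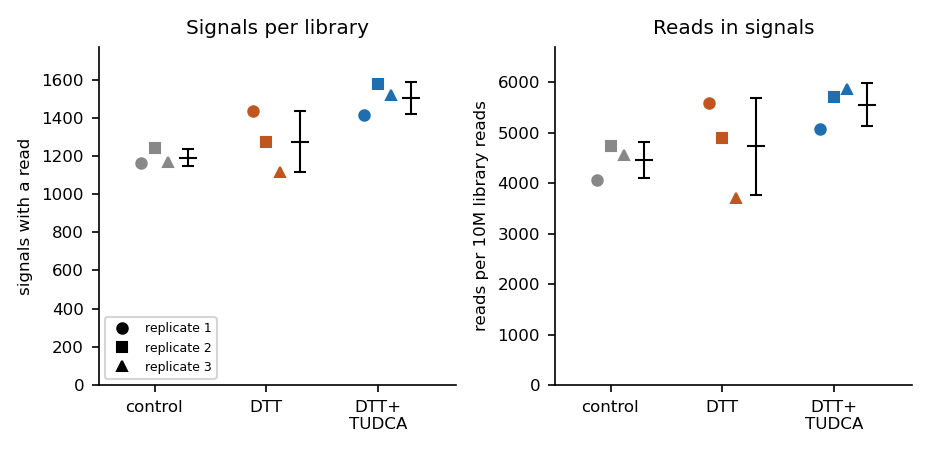
Points are single libraries (marker shape gives the replicate number), bars the mean ± SD of 3, for the number of signals with a read (left) and the reads in signals per 10M library reads (right), with the untreated control for reference. DTT replicate 3 is the lowest of the 9 libraries on both axes, and DTT replicate 1 lies among the libraries with TUDCA.

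Of the 187 signals with enough reads for a test, 2 were called higher with TUDCA and none lower. Both were low in DTT in all 3 libraries. Both also met the minimum of reads for a test through the libraries with TUDCA alone, as 3 of the 187 did, against 1 through the DTT libraries alone. The choice of tested signals thus already favoured that direction for them, and their adjusted p-values do not allow for this. The first was the signal of osa-MIR156k-p3_2ss13TC17TC on transcript Traes_6DS_BE3605A23 (arm 6DS). The miR156 family is known to target SPL transcription factors, which time the change from juvenile to adult shoot growth, but this small RNA is named for the other arm of a rice precursor, and its transcript is not annotated here. It had 1, 0 and 0 reads in DTT and 13, 9 and 15 with TUDCA. DTT was thus close to 0 in every library, and the lowest library with TUDCA held 9 reads against 1 in the highest DTT library. As 1 read stands behind the DTT side, the ratio of 36.7 has a wide counting interval, from 6.19 to 1487 (exact conditional, 95%, counting error only). Levels were 0.265 ± 0.458 per 10M in DTT and 9.68 ± 2.55 with TUDCA (edgeR adjusted p = 0.019). The control libraries had 2, 8 and 6 reads, between the other 2 treatments.

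The other was the signal of osa-miR5071_1ss15GA on Traes_1BL_DD29F7E69 (1BL), a small RNA named after a rice microRNA. It had 3, 3 and 3 reads in DTT and 10, 22 and 24 with TUDCA. The DTT libraries were alike and all lay below the libraries with TUDCA, of which replicate 1 was the lowest. The level rose from 2.37 ± 0.0364 to 14.6 ± 6.002 per 10M (log2 2.58, SE 0.60, edgeR adjusted p = 0.039), or by 2.32 relative to the median of all tested signals. Control libraries held 15, 5 and 11 reads, or 8.59 ± 4.09 per 10M, again above DTT. Against the control, in a comparison that uses the same DTT libraries, its log2 change in DTT was -1.81 (edgeR adjusted p = 0.224).

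These calls made up 1.07% of the tested signals, and neither held under every alternative. Both were lost without DTT replicate 3 (adjusted p = 0.127 for MIR156k and 0.186 for miR5071), and both without replicate 3 of DTT with TUDCA (0.541 for each), where the test also has fewer libraries. MIR156k was lost as well without replicate 1 of DTT with TUDCA (0.0944), by limma and by DESeq2 with its own size factors. It held under TMM scaling (0.0147), median centring (0.0441), DESeq2 with the library reads (0.0434) and with no filter on low counts (0.0135). For miR5071 the call was lost without DTT replicate 1 (0.106) or 2 (0.0753) or replicate 2 of DTT with TUDCA (0.299), under both scalings (0.0746 and 0.107), by limma and both DESeq2 tests, with no filter on low counts, with 1 line per transcript, by limma on the second deposited read number and with the replicate block (adjusted p = 0.0832). In every alternative that tested them, both signals were higher with TUDCA. All alternatives use the same reads of the same libraries, so the constant direction of these 2 signals adds no support. With all 9 libraries in 1 fit, 3 signals passed, these and that of pab-MIR11418-p3_2ss11GT18TG.

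The set of tested signals as a whole lay higher with TUDCA, and this has to be read beside each single signal. The median log2 fold change was 0.26 by library reads, with 120 of 187 above 0. It was -0.01 under TMM, with 93 above 0, and 0.16 without DTT replicate 3. Without DTT replicate 1 it was 0.46. By edgeR 12 signals were higher (6.42%) and 1 lower (0.535%) at an unadjusted p under 0.05. TMM scaling turned that split into 8 higher and 7 lower, and centring into 5 and 3. No signal was called lower by edgeR, and by limma and both DESeq2 tests 0 were as well, with 1 lower at an unadjusted p under 0.05 by limma, 1 by DESeq2 with library reads and 6 by DESeq2 with its own factors. In 12.8% of the tested signals, 24 in number, every library with TUDCA lay above every DTT library, and in 5 (2.67%) every one lay below. The 95% interval of a log2 fold change reached 1.32 to either side in the median signal, and 0.981 in the 50 strongest.

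**Figure D2:**
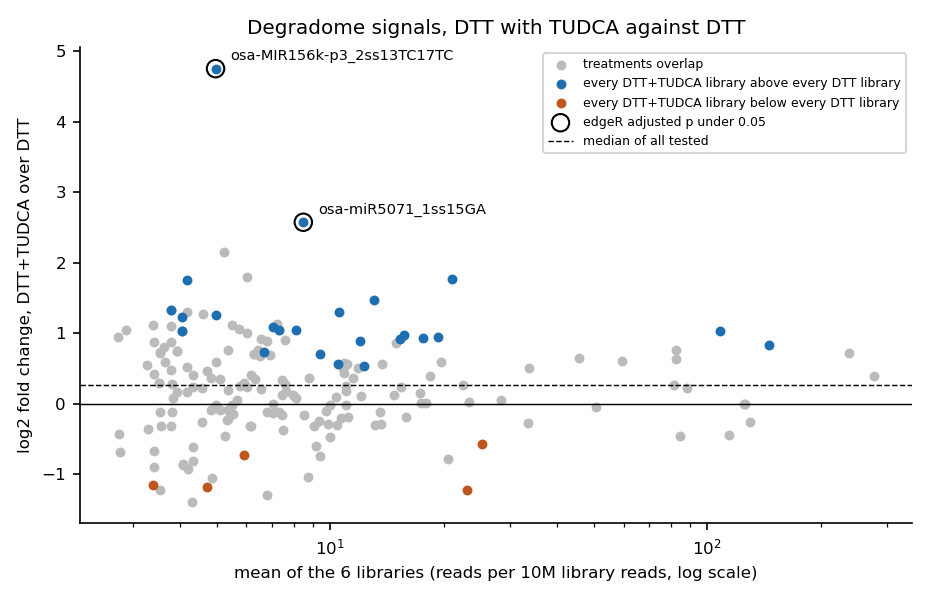
Each point is 1 of 187 tested signals, with its mean level over the 6 libraries (reads per 10M, log scale) on the x axis and the log2 fold change of DTT with TUDCA over DTT on the y axis. Blue and orange points are signals whose groups do not overlap, 24 above and 5 below. Circles mark the 2 calls, both among the weaker signals and both tested through their reads with TUDCA alone. The dashed line is the median of all tested signals, at 0.26.

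The signals next in line, none of which passed the test, were mostly higher with TUDCA. That of pab-MIR11418-p3_2ss11GT18TG (Traes_4BL_F32809B15, 4BL and 4DL) had 13, 15 and 8 reads in DTT and 26, 61 and 38 with TUDCA. All 3 libraries with TUDCA lay above all DTT libraries, and also above the control, at 13, 13 and 20 reads (log2 1.77, SE 0.47, edgeR adjusted p = 0.0856). A signal of osa-miR167d-5p_L-4R+1 on Traes_5BL_044AAF401 (5BL) had 9, 9 and 8 reads in DTT and 28, 25 and 21 with TUDCA. The groups were well apart, with 8 or 9 reads in each DTT library (log2 1.48, SE 0.46, edgeR adjusted p = 0.222). The related osa-miR167d-5p_L-3R+1 has a signal on the same 5BL transcript, with 10, 4 and 4 reads in DTT and 13, 13 and 12 with TUDCA, which may share reads with the former. Their like direction is therefore not separate support. The miR167 family is known to target the auxin response factors ARF6 and ARF8 of flower and root development in Arabidopsis.

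The strong signal of ath-miR847_L-2 on Traes_1DS_B73475505 (1DS) had 79, 120 and 70 reads in DTT and 170, 215 and 172 with TUDCA. Its level was 70.9 ± 21.9 in DTT and 145 ± 17.7 with TUDCA (log2 1.03, SE 0.43, edgeR adjusted p = 0.626), with the control at 131 ± 20.5. The libraries with TUDCA thus stood above all of DTT and overlapped the control. In Arabidopsis miR847 is known to target the auxin repressor IAA28, a role not known for the wheat transcript. On 6DS, aly-miR172c-3p_L-3 had 13, 6 and 4 reads in DTT and 19, 23 and 16 with TUDCA (log2 1.30, SE 0.53, edgeR adjusted p = 0.626). The miR172 family, which acts opposite to miR156 in shoot maturation, targets AP2-like transcription factors. That of atr-MIR8606-p5_2ss15TG18AG (1DL) had 17, 7 and 16 reads in DTT and 29, 24 and 27 with TUDCA (log2 0.98, SE 0.46, edgeR adjusted p = 0.669). In both the groups stood apart with a narrow gap.

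A pair of signals of miR169, a family that targets NF-YA subunits of a CCAAT-binding factor, were among the smallest p-values. That of aly-miR169a-5p_1ss21AT (4BL, 4DL) had 5, 2 and 0 reads in DTT and 5, 15 and 13 with TUDCA, where replicate 1 of both groups held 5 reads. For aly-miR169d-5p_L-1 on a 5BL transcript there were 17, 14 and 15 reads in DTT and 27, 25 and 37 with TUDCA, with no overlap. Another miR169 signal on that transcript, of vvi-miR169l_L+1R-1, went the other way, with 4, 0 and 6 reads in DTT and 0 in each library with TUDCA, too few for the test. A signal of aly-miR156a-5p_R+1_1ss20CT (6AS, 6DS) had 21, 18 and 11 reads in DTT and 36, 38 and 24 with TUDCA, and one of aly-miR858-5p (2AL, 2BL, 2DL) 1, 5 and 1 reads in DTT and 8, 11 and 6 with TUDCA, both without overlap. The miR858 family is known to target MYB transcription factors of flavonoid synthesis in Arabidopsis. The signal of tae-MIR9670-p5, on 5 transcripts of groups 5 and 6, had 6, 4 and 0 reads in DTT and 4, 14 and 18 with TUDCA, with the groups overlapping. Adjusted p for the 5 tested signals among these lay between 0.561 and 0.669.

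A single signal was lower with TUDCA at an unadjusted p under 0.05, that of gma-miR6300_L-1R+1 on Traes_2AL_AAD8D4641 (2AL, 2BL), with 27, 25 and 72 reads in DTT and 17, 18 and 18 with TUDCA. Every library with TUDCA lay below every DTT library, but DTT replicate 3 alone held more reads than the other 2 DTT libraries together (log2 -1.23, SE 0.47, edgeR adjusted p = 0.561). That is the library with the fewest signal reads in all. Without it the log2 change was -0.58 (edgeR adjusted p = 0.898). Next was the signal of aly-miR161-5p.2_R-2 (1AL), with 19, 5 and 13 reads in DTT and 7, 5 and 3 with TUDCA and overlapping groups (log2 -1.29, edgeR adjusted p = 0.726).

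**Figure D3:**
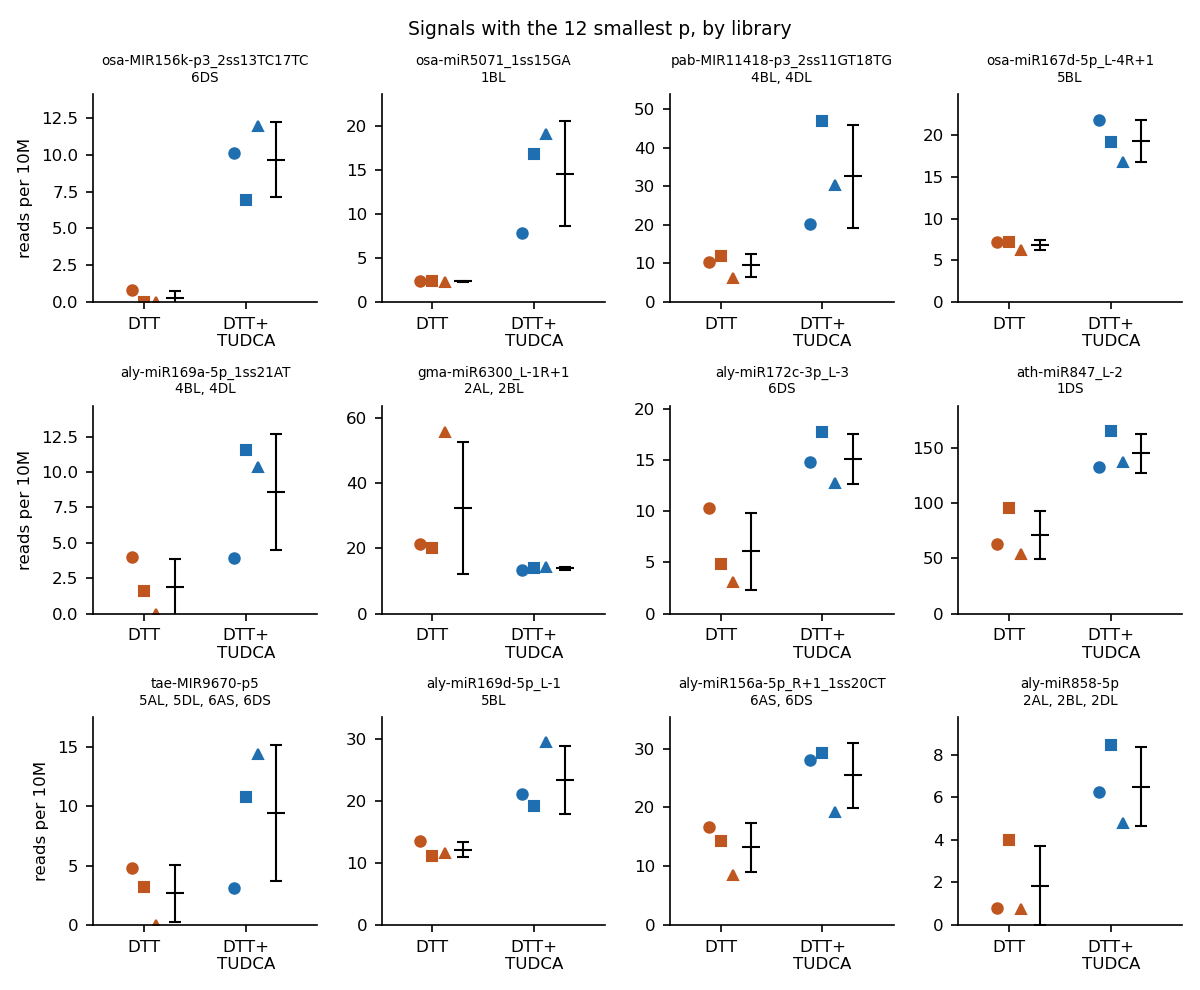
Reads per 10M library reads in each DTT and each DTT with TUDCA library for the 12 signals with the smallest p, by marker shape for the replicate number, with the mean ± SD of 3 beside them (bars end at 0). In 10 of the 12 the groups do not overlap, 9 with TUDCA above DTT and 1, that of gma-miR6300_L-1R+1, below.

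None of the 10 strongest signals passed the test. The 10 strongest held 27.4% of the signal reads in DTT and 28.4% with TUDCA. First was PC-3p-103864_22 on Novel12989, at 338, 235 and 143 per 10M in DTT and 260.0, 321 and 364 with TUDCA (log2 0.40, edgeR adjusted p = 0.847). Second was tae-miR160 on Traes_1AL_147CF243C (1AL, 1BL, 1DL), with 329, 222 and 127 reads in DTT and 219, 451 and 465 with TUDCA (log2 0.73, SE 0.50, edgeR adjusted p = 0.752). Its DTT libraries were highest in replicate 1 and lowest in replicate 3, and replicate 1 with TUDCA lay among them. The miR160 family targets repressing auxin response factors. The tae-miR160 signal on 7AL, 7BL and 7DL was at 126 ± 58.3 in DTT and 126 ± 50.9 with TUDCA, a log2 change of -0.00254 with a 95% interval from -1.03 to 1.02.

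Next, tae-miR9676-5p on Novel13637, had 124, 168 and 106 reads in DTT and 206, 270 and 241 with TUDCA and did not overlap (log2 0.83, SE 0.43, edgeR adjusted p = 0.752). The miR9676 family carries a name from wheat, and no target class is given for it here. On 7BS, aly-MIR163-p5_2ss8GA18GC was at 141 ± 50.4 and 118 ± 11.8 per 10M, and aly-miR169d-5p_L-1 (4AL) at 125 ± 80.7 and 125 ± 7.70. The latter was high in DTT replicate 1 alone, with 275 reads against 105 and 95 in the other two. That of aly-miR172c-3p (2AL, 2BL) stood at 81.6 ± 33.4 and 95.5 ± 14.04. The signal of tae-MIR1122a-p3_1ss7AG on Novel11325 had 94, 105 and 174 reads in DTT and 143, 57 and 73 with TUDCA, the reverse of most strong signals in that DTT replicate 3 was the highest library (log2 -0.46, edgeR adjusted p = 0.801).

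Small RNA families were compared by the sum of their signals, each signal counted once in the family of its strongest line. Reads were found for 234 families, and 111 could be tested. By edgeR no family sum passed in either direction (0%), with 11 higher (9.91%) and 0 lower at an unadjusted p under 0.05, and 0 passed by limma or by either DESeq2 test. In 17 families (15.3%) every library with TUDCA lay above every DTT library, and in 2 (1.8%), miR171 and miR161, below. The median log2 fold change of the family sums was 0.21 by library reads, 0.01 under TMM and 0.03 without DTT replicate 3. Without DTT replicate 1 a single family passed, miR1137 (log2 3.21, edgeR adjusted p = 0.025). No DTT library left in that fit reached the minimum of reads, so miR1137 was tested there through the libraries with TUDCA alone. Its adjusted p does not allow for this.

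Of the 8 families with the smallest p-values, miR167 is in the list of conserved families and is described with the auxin pathway below. The sum of miR1137, one of the repeat-associated families of wheat, had 6, 0 and 3 reads in DTT and 6, 21 and 18 with TUDCA (log2 2.26, SE 0.70, edgeR adjusted p = 0.137). Replicate 1 held 6 reads in both groups, so they touched. The miR11418 sum was 20.6, 39.9 and 16.3 in DTT and 46.8, 66.1 and 47.8 with TUDCA per 10M (log2 1.06, SE 0.34, edgeR adjusted p = 0.137), and that of miR9676 was 101, 137 and 82.98 in DTT and 166, 216 and 197 with TUDCA (log2 0.85, SE 0.27, edgeR adjusted p = 0.137). Neither overlapped. In miR9676 the strongest signal held 97.3% of the reads, while in miR11418 it held 53.1%. The miR5071 sum, of 23 signals, was 12.4 ± 7.27 in DTT and 28.97 ± 7.17 with TUDCA, and the called signal made up 41.1% of it. The sums of miR9670 (11.9 ± 7.01 in DTT and 27.1 ± 9.29 with TUDCA), miR8051 (7.90 ± 4.97 in DTT and 17.5 ± 3.34 with TUDCA) and miR847 (147 ± 20.8 in DTT and 225 ± 22.7 with TUDCA) were also higher, with adjusted p between 0.217 and 0.366. Leaving out DTT replicate 3 gave log2 changes of 2.25 for miR1137, 0.82 for miR11418 and 0.70 for miR9676. The change went from 1.22 to 0.82 for miR5071 and from 1.18 to 0.76 for miR9670. It went from 1.14 to 0.99 for miR8051 and from 0.62 to 0.51 for miR847.

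Among families of the auxin pathway, miR167 had the largest log2 change, and miR160 the largest difference in reads. The miR167 sum, of 43 signals, was 82.6, 119 and 68.2 in DTT and 167, 131 and 151 with TUDCA per 10M. All 3 libraries with TUDCA lay above DTT, and near the control at 159.9 ± 13.6 (log2 0.73, SE 0.28, edgeR adjusted p = 0.217). The miR167 log2 change was 0.57 without DTT replicate 3. Its tae-miR167b_R+1_2ss9AC21AC signal (7AL, 7DL) was at 50.8, 90.2 and 42.7 per 10M in DTT and 114, 88.4 and 108 with TUDCA, where the highest DTT library lay just above the lowest with TUDCA. The miR160 sum was 491, 418 and 212 in DTT and 289.6, 589.7 and 629 with TUDCA, with replicate 1 with TUDCA below 2 of the DTT libraries (log2 0.43, SE 0.32, edgeR adjusted p = 0.807). Without DTT replicate 3 its log2 change was 0.15. For miR390, which triggers the TAS3 small RNAs that silence auxin response factors, the sum was 15.9, 16.8 and 3.10 in DTT and 17.2, 17.7 and 21.5 with TUDCA, with DTT replicate 3 far below the rest (log2 0.66, SE 0.47, edgeR adjusted p = 0.807). Its log2 change was 0.20 without that library. The miR393 sum, a family that targets TIR1/AFB auxin receptors, was 73.8 ± 26.04 in DTT and 69.7 ± 7.08 with TUDCA (log2 -0.08).

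Families that target developmental transcription factors gave mostly small differences. The miR156 sum was 92.1, 90.2 and 51.2 in DTT and 110.1, 107 and 101 with TUDCA per 10M, without overlap (log2 0.45, SE 0.28, edgeR adjusted p = 0.807), and its log2 change was 0.22 without DTT replicate 3. Beside the 2 miR156 signals described above, the 3B signal of aly-miR156a-5p_R+1_1ss20CT was at 20.4 ± 12.6 and 24.6 ± 8.75. For miR172 the sum was 222 ± 53.7 in DTT and 279 ± 35.5 with TUDCA and for miR169 388 ± 158 in DTT and 451 ± 31.6 with TUDCA, at log2 changes of 0.33 and 0.22, which were 0.15 and -0.0021 without DTT replicate 3. The miR164 sum, of a family that targets NAC factors, was 292 ± 88.4 in DTT and 296 ± 12.7 with TUDCA (log2 0.02, 95% interval from -0.55 to 0.59). The miR444 family, which targets MADS-box factors in monocots, had 23.8, 33.5 and 25.6 in DTT and 39.04, 36.1 and 37.5 with TUDCA, without overlap (log2 0.44, SE 0.32, edgeR adjusted p = 0.807). The miR171 sum, of a family that targets SCL factors of the GRAS class, was 19.1, 13.6 and 13.2 in DTT and 7.81, 8.46 and 11.96 with TUDCA, and every library with TUDCA lay below DTT (log2 -0.69, SE 0.47, edgeR adjusted p = 0.807). The sums of miR166 (71.7 ± 20.2 in DTT and 77.5 ± 15.8 with TUDCA), miR396 (50.3 ± 18.7 in DTT and 49.3 ± 11.6 with TUDCA) and miR159 (20.8 ± 6.13 in DTT and 18.6 ± 8.10 with TUDCA) overlapped, as did miR319, with few reads, at 6.05 ± 1.22 in DTT and 4.14 ± 2.33 with TUDCA. These act on HD-ZIP III factors, growth-regulating factors, GAMYB and TCP factors, in that order.

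Among nutrient and silencing families, miR398 stood out in size only. This copper-responsive family targets copper/zinc superoxide dismutase. Its sum was 32.5, 20.8 and 6.98 in DTT and 24.2, 38.4 and 39.1 with TUDCA per 10M (log2 0.75, SE 0.40, edgeR adjusted p = 0.583). Its DTT libraries ranged widely, and replicate 1 with TUDCA lay within them. Without DTT replicate 3 the log2 change was 0.35. Its ath-miR398b-3p_1ss20TG signal (2AL) had 19, 14 and 7 reads in DTT and 20, 31 and 26 with TUDCA, without overlap, and tae-miR398 (2AS, 2BS, 2DS) had 19, 12 and 2 reads in DTT and 11, 16 and 23 with TUDCA, with overlap. The sums of miR395 (16.1 ± 9.21 in DTT and 16.9 ± 8.39 with TUDCA), miR399 (7.36 ± 3.58 in DTT and 9.10 ± 2.40 with TUDCA), miR827 (20.3 ± 8.82 in DTT and 23.5 ± 5.82 with TUDCA) and miR397 (6.05 ± 2.43 in DTT and 6.52 ± 1.61 with TUDCA), which act on sulfate assimilation, phosphate homeostasis and laccases, overlapped. The sum of miR162, which targets Dicer-like 1, was 7.94 ± 5.28 in DTT and 9.37 ± 3.03 with TUDCA, and that of miR168, which targets Argonaute 1, 35.6 ± 14.2 in DTT and 35.1 ± 14.3 with TUDCA. The miR394 sum, of a family that targets an F-box protein, was 11.3 ± 4.04 in DTT and 8.88 ± 4.35 with TUDCA, and that of miR1432 3.17 ± 2.13 in DTT and 4.17 ± 0.913 with TUDCA. Too few reads for a test came from miR157, miR403, miR408 and miR528.

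The conserved families held 38.6% ± 4.81 in DTT and 40.1% ± 1.30 with TUDCA of a library's signal reads (n = 3). Of their 1005 signals 68 were tested, with 1 called higher, 50 above 0 and a median log2 change of 0.29, beside 0.26 over all tested signals. That call was MIR156k, tested through its reads with TUDCA alone. The Triticeae families miR9650 to miR9799 held 3.71, 4.92 and 3.81% of the signal reads in DTT and 5.03, 6.35 and 5.38% with TUDCA. That share did not overlap between the groups, although the lowest library with TUDCA lay just above the highest DTT library, and tae-miR9676-5p held most of it. Of 136 such signals 7 were tested and none was called, with a median log2 change of 0.81. The grass families miR5048 to miR5090 had 13 tested signals of 200, with 1 call (miR5071, likewise tested through TUDCA alone), 12 above 0 and a median of 0.56. Of their 8 tested family sums 4 were above 0, with a median of 0.02, and of 6 Triticeae sums 3 were, with a median of 0.42, beside 0.21 over all family sums. For the PC candidates, 14 of 292 signals were tested, none was called and the median was 0.35. The repeat-associated families miR1117 to miR1139 had 8 of 356 tested, no call and a median of 0.10. Their share was 9.08% in DTT replicate 3, against 4.42% and 5.01% in the other DTT libraries and 4.75% to 5.75% with TUDCA.

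**Figure D4:**
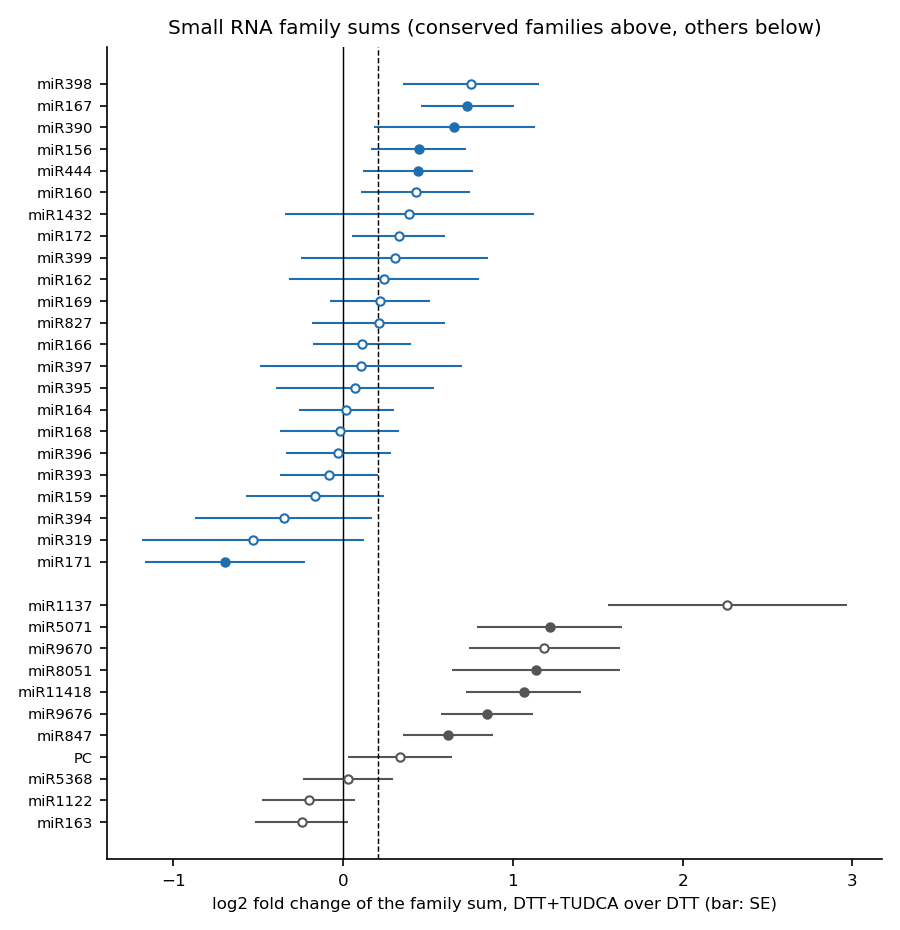
Log2 fold change of each family sum (DTT with TUDCA over DTT, bars ± SE from edgeR) for the 23 tested conserved families (blue, above) and for other families with the smallest p or the most reads (grey, below). Filled points mark families whose 3 libraries with TUDCA all lie on 1 side of the 3 DTT libraries, and the dashed line is the median of all 111 tested families, at 0.21. No family sum passed the test.

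The kinds of transcript ID took almost the same shares in both treatments. IDs starting with Traes give a chromosome arm in their name, TRAES3BF IDs belong to chromosome 3B, and IDs such as Novel12989 (called unplaced below) and EPlTAEG IDs name no chromosome. Signals lying only on Traes transcripts held 70.05% ± 2.56 of the signal reads in DTT and 70.1% ± 0.784 with TUDCA. Unplaced transcripts held 19.3% and 19.6%, EPlTAEG transcripts 3.04% and 2.55%, and TRAES3BF transcripts 2.02% and 1.97%. Over the 5 classes, adjusted exact permutation p of the shares was 1 throughout. In reads per 10M the unplaced class had 1019, 897 and 793 in DTT and 995, 1111 and 1156 with TUDCA, and the Traes class 3326 ± 777 in DTT and 3895 ± 330.5 with TUDCA. Signals on several kinds of ID had 285, 275 and 220.2 in DTT and 312, 318 and 332 with TUDCA, the one class without overlap (ratio of means 1.23, exact permutation p = 0.1, the smallest possible, and 0.333 adjusted over 5 classes). EPlTAEG transcripts were at 138, 138 and 141 and 134, 141 and 149. Their share was the highest in DTT replicate 3, at 3.81%. Both called signals lie on Traes transcripts, where 142 of 2359 signals were tested.

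Bread wheat is hexaploid, with 3 subgenomes, A, B and D, whose matching (homeologous) genes are often too alike for short reads to tell apart. Signals whose placed transcripts lie on several subgenomes held 37.2% ± 2.42 of the reads in DTT and 38.5% ± 1.55 with TUDCA. Signals on subgenome D alone had 454, 473 and 395 reads per 10M in DTT and 567, 607 and 576 with TUDCA. Every library with TUDCA lay above every DTT library, a ratio of means of 1.32 (exact permutation p = 0.1, the smallest possible, and 0.500 adjusted over 5 classes). As a share of signal reads, D signals were at 8.13, 9.68 and 10.7% and 11.2, 10.6 and 9.82%, which overlapped. The ath-miR847_L-2 signal on 1DS, the strongest of them, made up 74.1 of the difference of 143 reads per 10M. Without it the ratio of D was 1.18, beside 1.18 for all signal reads, which include that signal and overlapped between the groups. The other D signals stayed apart, at 391, 378 and 341 per 10M in DTT and 434, 442 and 439 with TUDCA. Signals on A alone were at 1243, 721 and 568 and 805, 990.3 and 942 per 10M, and on B alone at 695, 689.8 and 487 and 683, 634 and 670.4. DTT replicate 1 was far above the rest for A. Its A signals aly-miR169d-5p_L-1 (4AL) and zma-MIR164h-p5_2ss4CG17CG_1 (6AL) together had 421 per 10M there, against 129 to 249 in the other libraries, and all other A signals 822 against 439.7 to 778.

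By signal, 16 of 19 tested D signals had a log2 change above 0 (median 0.44), beside 19 of 31 on A (0.42), 19 of 31 on B (0.26) and 50 of 81 on several (0.21). Groups did not overlap, with TUDCA higher, in 6 signals on D, 6 on B, 3 on A, 5 on several and 4 with no subgenome, beside 24 (12.8%) of all tested. They did not overlap with TUDCA lower in 0 on D, 2 on B, 0 on A, 2 on several and 1 with no subgenome, beside 5 (2.67%) of all. The difference between subgenomes was not tested.

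Signals seen in 1 of the 2 treatments were too weak for the test, and those named here, the 3 with the most reads with TUDCA alone and the 5 with the most in DTT alone, were chosen after their values were seen. Of the 3857 signals, 1333 were seen with TUDCA alone, 51 of them in all 3 libraries. In DTT alone 1040 were seen, 21 of them in all 3. All signal reads were likewise higher with TUDCA, by a ratio of means of 1.18 with overlapping groups. With TUDCA alone, bdi-MIR166g-p5_2ss10TG18AC on Novel04963 had 3, 6 and 4 reads, at least 4.29-fold higher than a floor of 3 reads over the 3 DTT libraries. Next were gra-MIR8645-p5_2ss12TG17AG (Novel17439) with 5, 5 and 2 reads and gma-MIR5368-p3_4 (2BS, 2DS) with 4, 5 and 2. The control had 1, 0 and 0 reads of these 3 in all. In DTT alone, gra-MIR482d-p3_2ss15AT17AT on Traes_7DS_93A546DF1 had 2, 9 and 3 reads, at least 4.71-fold above the same floor, with 8 reads over the control libraries. The miR482 family is known to target disease resistance genes of the NBS-LRR class in other plants. The signal of aly-MIR163-p5_2ss8GA18GC on 7AL, 7BL and 7DL had 4, 0 and 7 reads in DTT and 5 in the control. That of gma-MIR5368-p3_1ss12CA on Novel15451 had 3, 6 and 1, with 5 in the control. The vvi-miR169l_L+1R-1 signal on 5BL had 4, 0 and 6, with 1 in the control. Last was a miR396 signal, of aly-miR396a-5p_1ss20TA (4AL), with 1, 3 and 4 reads in DTT and 9 in the control.

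Signals that differ from the untreated control were set beside the present comparison. The same edgeR test called 5 of 156 signals (3.21%) between DTT and the control, and 16 of 166 (9.64%) between DTT with TUDCA and the control. Not all of the called signals met the minimum of reads in both groups compared. Those of atr-MIR8606-p5_2ss15TG18AG and tae-MIR1135-p3_1ss21TC met it through the libraries with TUDCA alone, and that of har-miR403a_R-3 through the control alone. The choice of tested signals favoured their direction, and their adjusted p-values do not allow for this. These comparisons share their libraries with the one described here, so the values are given side by side and nothing is read from their likeness. None of the signals called against the control passed the test of DTT with TUDCA against DTT. The signal of zma-MIR164h-p5_2ss4CG17CG_1 (6AL) was at 24.7, 29.9 and 20.4 per 10M in the control, 202, 137 and 55.1 in DTT and 133, 86.1 and 71.7 with TUDCA. Both treatments lay above the control, and they overlapped each other (log2 -0.44, SE 0.49, edgeR adjusted p = 0.835). On 7BS, aly-MIR163-p5_2ss8GA18GC was at 40.6, 54.98 and 41.8 in the control, 135, 195 and 94.6 in DTT and 130.4, 117 and 107 with TUDCA (log2 -0.26), with the same order of groups. For aly-MIR161-p5 on Traes_5BL_86F2EC1B0 (5BL) the levels were 7.17, 9.70 and 11.6, 33.3, 29.5 and 27.9 and 20.3, 19.99 and 20.7. There the 3 treatments did not overlap, and DTT with TUDCA stood between the control and DTT, at a log2 change from DTT of -0.57 (SE 0.40, edgeR adjusted p = 0.752).

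Several signals called between DTT with TUDCA and the control had DTT between the other 2 groups. The mean of tae-miR9676-5p was 66.7 in the control, 105 in DTT and 187 with TUDCA. That of atr-MIR8606-p5_2ss15TG18AG was 2.73, 10.5 and 20.9, with no overlap, and that of ath-miR398b-3p_1ss20TG 4.07, 10.6 and 20.1. The signal of tae-MIR1135-p3_1ss21TC, on 20 transcripts, had 1, 1 and 0 reads in the control, 7, 5 and 7 in DTT and 8, 11 and 13 with TUDCA, with no overlap among the 3 groups. The test of DTT with TUDCA against DTT was not passed by bdi-MIR444b-p3 (log2 0.87), gma-MIR5368-p5_1ss3TC (0.60), ath-miR847_L-2 on 2BS (0.57), tae-miR398 (0.58), ath-miR5634 (0.37) and aly-miR156a-5p_R+1_1ss20CT on 3B (0.27), with adjusted p from 0.752 to 0.938. The signal of mtr-MIR2592bj-p3_2ss10TC17AT was at 8.73, 37.5 and 31.8 per 10M in DTT and 14.1, 13.1 and 18.3 with TUDCA, where DTT replicate 1 lay below all 3 (log2 -0.78, edgeR adjusted p = 0.752). The signal of har-miR403a_R-3 (2AL, 2BL, 2DL), named after a family that targets Argonaute 2 in eudicots, was at 8.77, 4.04 and 15.1 in the control, 0, 1.60 and 1.55 in DTT and 2.34, 2.31 and 1.59 with TUDCA. It had too few reads for a test between the treatments.

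**Figure D5:**
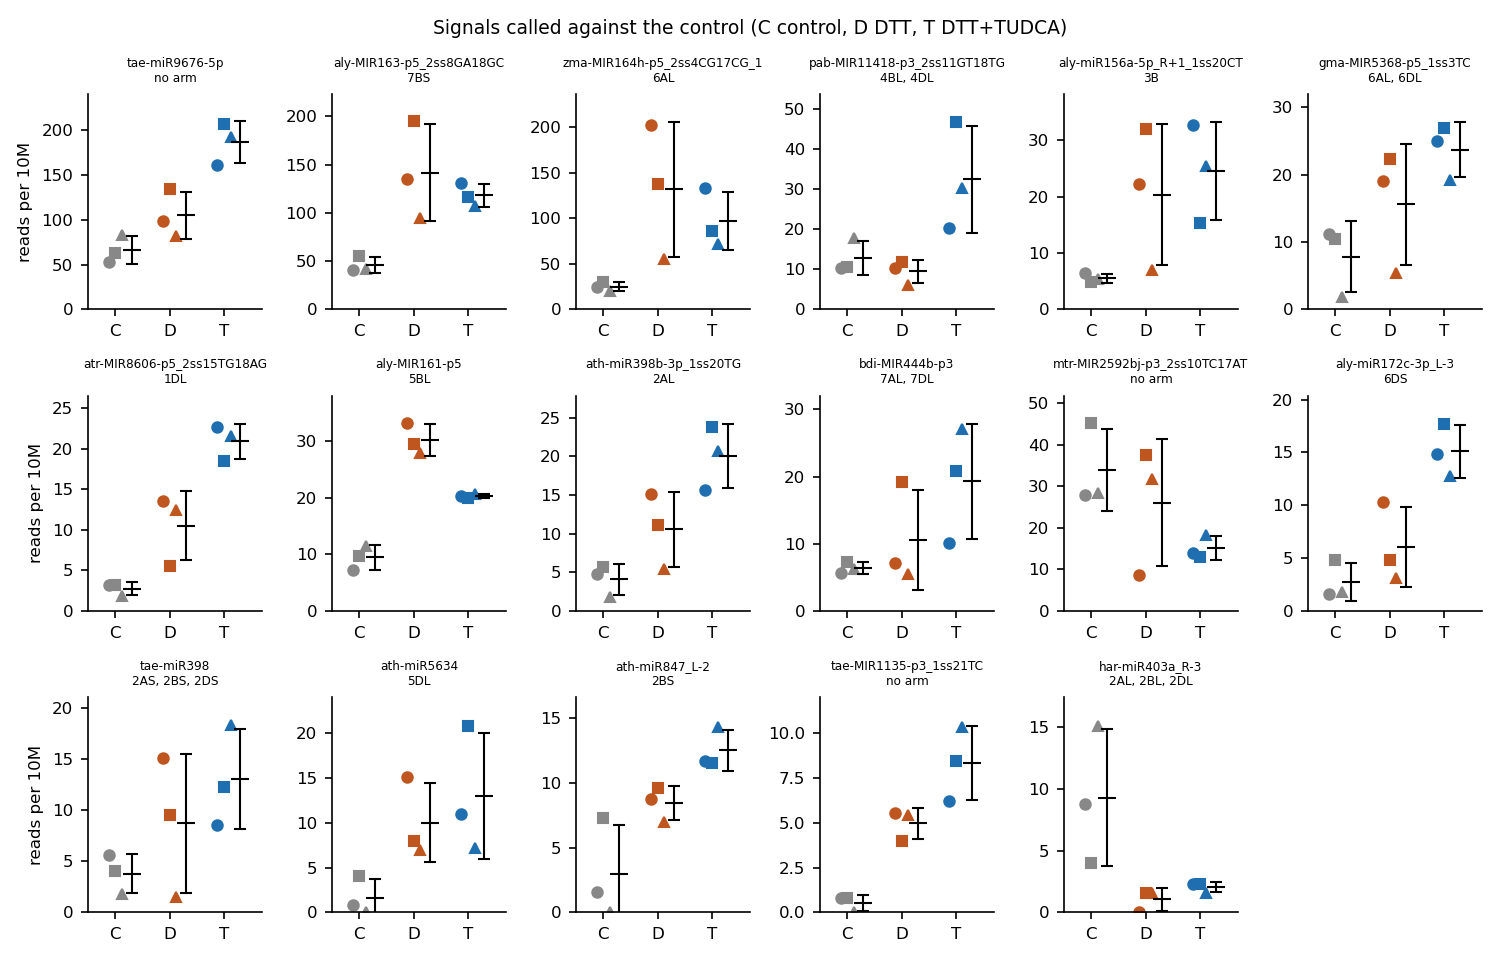
Reads per 10M library reads in each library of the control (C), DTT (D) and DTT with TUDCA (T) for the 17 signals called in DTT or in DTT with TUDCA against the control, by marker shape for the replicate number, with the mean ± SD of 3 (bars end at 0). The 3 treatments do not overlap in 3 of the 17, with DTT the highest in aly-MIR161-p5 and DTT with TUDCA in atr-MIR8606-p5_2ss15TG18AG and tae-MIR1135-p3_1ss21TC. The 17 were chosen for a difference from the control in these same libraries, which favours separation. No share over all tested signals is given beside it, so nothing is read from this count.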

How the data were processed

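Degradome reads of 36 nt were counted by the authors per small RNA and transcript, and the deposited tables give, per the file headers, raw counts and a second read number called normalized, in each library. No header explains this second deposited number, treated here as an expected count: it was never above the raw count, which was a whole multiple of it in 95.7% of values (tolerance 0.001). The authors' signal, headed TPB, scales it to 1000000000 library reads. The library reads were recovered from the latter pair. Not given in the sources used here: mapper, transcript set, target caller, build. Of the transcript IDs, 0 matched the gene table at hand.

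Lines sharing a small RNA or transcript were merged where the summed absolute difference of their raw counts, over all 9 libraries, did not exceed 20% of the larger sum. 3 pairs listed more than once were left out. Signals and family sums were tested by the quasi-likelihood method of edgeR 4.0.16 in R 4.3.3, on raw counts of the 6 libraries, with library reads as library sizes, filterByExpr minima of 5 (count) and 10 (total), Benjamini-Hochberg adjustment over all tested and a threshold of 0.05. SE is the log2 change over the root of F. Library totals, classes and subgenomes were compared by exact permutation. Alternatives were limma 3.58.1 on log2(reads per 10M + 1), DESeq2 1.42.0, other scalings, filters and merging rules, and each library left out. The tests were also run on simulated counts with changes in both directions, every signal kept and no deviating library. Such counts cannot speak to DTT replicate 3 or to signals tested through 1 treatment alone. Counting intervals cover counting error only.

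The merging rule, families, lists and tests were chosen with earlier results of these data known. Families follow the number after miR or MIR in the name. Named were the calls, the 12 uncalled signals and 8 uncalled families with the smallest p, the 10 strongest of each, the strongest tested signal of each conserved family and signals called against the control. No p-value was adjusted over a list alone. The authors' own fold change and direction columns were not used.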

Additional observations from a re-analysis of the deposited data

How the results depend on the processing

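The 2 signals called higher were 3 with all 9 libraries in 1 fit and 2 with lines merged at 5% or over the 6 libraries alone. They were 1 under TMM, after median centring, by DESeq2 with library reads, without a filter on low counts, with 1 line per transcript and by limma on the second read number. They were 0 by DESeq2 with its own factors, by limma and with the stricter filter, which tested neither signal. Leaving out 1 library gave 0 to 1. With library number as a replicate block 1 was called, but same-numbered libraries did not deviate together (correlations of deviations from -0.21 to -0.15), so the numbers were not taken to pair the samples. No signal was called lower under any alternative. Family sums called higher stayed at 0, and at 0 to 1 with 1 library left out, with 0 called lower throughout. Apart from the calls of MIR156k and miR5071, MIR11418 passed with all 9 libraries and the miR1137 sum without DTT replicate 1. The miR1137 sum was then tested through the libraries with TUDCA alone. The log2 change turned for aly-miR172c-3p (2AL, 2BL) from 0.23 to -0.028 under TMM, -0.034 after centring and -0.12 by DESeq2 with its own factors, and aly-miR169d-5p_L-1 (4AL) from -0.0070 to 0.17 by limma, 0.18 with the replicate block and 0.17 by limma on the second read number. It also turned for tae-miR160 (7AL, 7BL, 7DL) from -0.0025 to 0.028 by limma, 0.0098 with the replicate block and 0.026 by limma on the second read number, and aly-miR156a-5p_R+1_1ss20CT (3B) from 0.27 to -0.0049 by DESeq2 with its own factors. Further turns were tae-miR159a_R-1 (3AL, 3B, 3DL) from 0.25 to -0.031 under TMM, -0.0093 after centring and -0.12 by DESeq2 with its own factors, and aof-miR168a_R-2 (1AL) from 0.030 to -0.19 under TMM, -0.23 after centring and -0.28 by DESeq2 with its own factors. The sign changed for ata-miR395a-3p_L+1 (5AL, 5BL, 5DL) from 0.13 to -0.14 under TMM, -0.13 after centring and -0.24 by DESeq2 with its own factors, and ath-miR827_L-2 (6BL) from 0.26 to -0.00025 after centring and -0.044 by DESeq2 with its own factors. Likewise for the miR5368 sum from 0.028 to -0.19 under TMM, -0.18 after centring and -0.19 by DESeq2 with its own factors, and the miR164 sum from 0.020 to -0.14 under TMM, -0.19 after centring and -0.15 by DESeq2 with its own factors. All of these were uncalled. With 1 library left out, the log2 change also turned, with ranges in brackets, for zma-MIR164h-p5_2ss4CG17CG_1 (6AL) (-0.81 to 0.011), aly-MIR163-p5_2ss8GA18GC (7BS) (-0.48 to 0.040), aly-miR172c-3p (2AL, 2BL) (-0.060 to 0.52), aly-miR169d-5p_L-1 (4AL) (-0.28 to 0.66), tae-miR160 (7AL, 7BL, 7DL) (-0.33 to 0.32), aly-miR156a-5p_R+1_1ss20CT (3B) (-0.14 to 0.75), tae-miR159a_R-1 (3AL, 3B, 3DL) (-0.18 to 0.49), bdi-MIR166g-p3_2ss11TA17TG (3AS, 3DS) (-0.40 to 0.15), aof-miR168a_R-2 (1AL) (-0.41 to 0.91), aly-miR393a-5p_1ss16TC (2AL, 2BL, 2DL) (-0.55 to 0.11), ata-miR395a-3p_L+1 (5AL, 5BL, 5DL) (-0.26 to 0.45), ata-miR399a-3p (1AL, 1BL, 1DL) (-0.99 to 0.54), ath-miR827_L-2 (6BL) (-0.039 to 0.54), ath-miR5634 (5DL) (-0.14 to 0.79), the miR1122 sum (-0.34 to 0.053), the miR169 sum (-0.0021 to 0.59), the miR5368 sum (-0.014 to 0.11) and the miR164 sum (-0.21 to 0.15). Shares in percentage points (DTT with TUDCA minus DTT) turned for the share of Traes transcripts from 0.068 to -0.16 merged at 5% and -0.90 with the second read number and the share of signals with no subgenome from -0.13 to 0.14 merged at 5% and 0.99 with the second read number, and with 1 library left out for the share of unplaced transcripts (-0.30 to 1.29), the share of TRAES3BF transcripts (-0.25 to 0.096), the share of subgenome A (-2.39 to 1.36), the share of Traes transcripts (-1.40 to 0.97) and the share of signals with no subgenome (-0.96 to 1.25). The cause was not tested in any of these. In all other comparisons the named values kept their direction and side of the threshold. These were 1032 comparisons of a named signal or family and 158 of a count, total or share. They include the remaining settings of the values listed above. The 95% interval of a log2 change reached 1.32 to either side in the median signal and 0.981 in the 50 strongest, and 3 libraries a group cannot give an exact p below 0.1.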
